A study of Xenopus tropicalis with 7 samples.

Results

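Genes of gut and liver differentiation were read in whole *X. tropicalis* embryos by poly(A) RNA sequencing. The set was given as 10 symbols: the fatty acid binding proteins *fabp1* and *fabp2*, the apolipoproteins *apoa1*, *apoa4*, *apob* and *apoc1*, the carrier protein *ttr*, and the fibrinogen chains *fga*, *fgb* and *fgg*. The count table lists 19884 genes, and 9 of the 10 symbols matched one of them. No row carried the symbol of *apoc1* or its RefSeq identifiers, so *apoc1* was not analysed here. The symbols were selected on the measured levels themselves, that is on the reads of KD, control and stage 20 libraries, with replicate 2 of each group to be read apart. The values of the members are therefore a description. Counts of members past a threshold stand beside the share of all genes and support nothing.

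The 7 libraries fall into 3 groups. Embryos of the Nigerian (Cam4) wild-type strain received 20 ng in total of splicing- and translation-blocking morpholinos against *Xbra* and *Xbra3* at the 1-cell stage (KD, 3 libraries at stage 32). Others received 20 ng of a control morpholino, directed at human β-globin (control, 3 libraries at stage 32). The third group was left uninjected and is 1 library at stage 20. *Xbra* and *Xbra3* are Brachyury paralogs, T-box transcription factors of the nascent mesoderm, notochord and tail bud. A morpholino is an antisense oligonucleotide, and one injected this early is passed to cells of all tissues. It blocks its target transcripts only where they are present, and tissues were not separated here. Each library came from the RNA equivalent of 2 embryos, and the labels call the libraries of a group biological replicates without saying which clutch each came from.

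The vertebrate liver buds from the ventral foregut endoderm, and the intestine forms from the endoderm behind it. Hepatocytes secrete most plasma proteins, among them transthyretin, fibrinogen and the apolipoproteins of circulating lipid particles, while enterocytes take up fatty acids and pack them into chylomicrons around apolipoprotein B. These genes are switched on late, as the endoderm differentiates, under nuclear receptors and homeodomain factors such as HNF4 and HNF1. In bulk RNA of whole embryos, fewer liver or gut cells and less RNA per cell cannot be told apart.

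The libraries held 73740300 to 120160026 reads. *Xbra3*, listed as *t2*, stood at 0.760, 0.503 and 0.541 CPM (read counts scaled to a common library size) in KD replicates 1 to 3, against 27.1, 14.3 and 24.4 CPM in control replicates 1 to 3. *Xbra*, listed as *t*, stood at 8.42, 7.57 and 6.13 CPM in KD replicates 1 to 3, against 17.4, 9.75 and 16.0 CPM in control replicates 1 to 3. The stage 20 library held 65.6 CPM of *t2* and 63.0 CPM of *t*. Of 16944 genes tested, 6.98% were lower and 7.44% were higher in KD than in control embryos at a false discovery rate (FDR) below 10%, by the quasi-likelihood test of edgeR. Marker genes of skeletal muscle and of neural tissue moved with the groups. The summed level of 15 skeletal muscle markers was 9426 to 11530 CPM in KD and 22810 to 23340 CPM in control libraries, and that of 17 neural markers 1743 to 1939 CPM in KD and 1225 to 1420 CPM in control libraries. Of the muscle markers 12 of 15 fell and of the neural markers 6 of 17 rose. Of 17 epidermal markers 1 fell and 1 rose, and of 14 blood markers 2 fell and 1 rose. No marker was at 0 in all stage 32 libraries. The part of these tissues in the values below was not tested.

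Every member that could be read was lower in the KD than in the control library of the same replicate number, in all 3 pairs. This held for 9 of 9 members, where 30.0% of all genes tested were lower in all 3 pairs. Leaving aside *fabp2* and *apoa4*, the fitted differences were between 1.52-fold and 2.81-fold. Those of *fabp2* and *apoa4* were 9.89-fold and 30.2-fold. The libraries of one group also spread widely. The coefficient of variation over 3 libraries was between 46.3% and 86.0% in KD embryos and between 40.9% and 137% in control embryos.

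**Figure D1:**
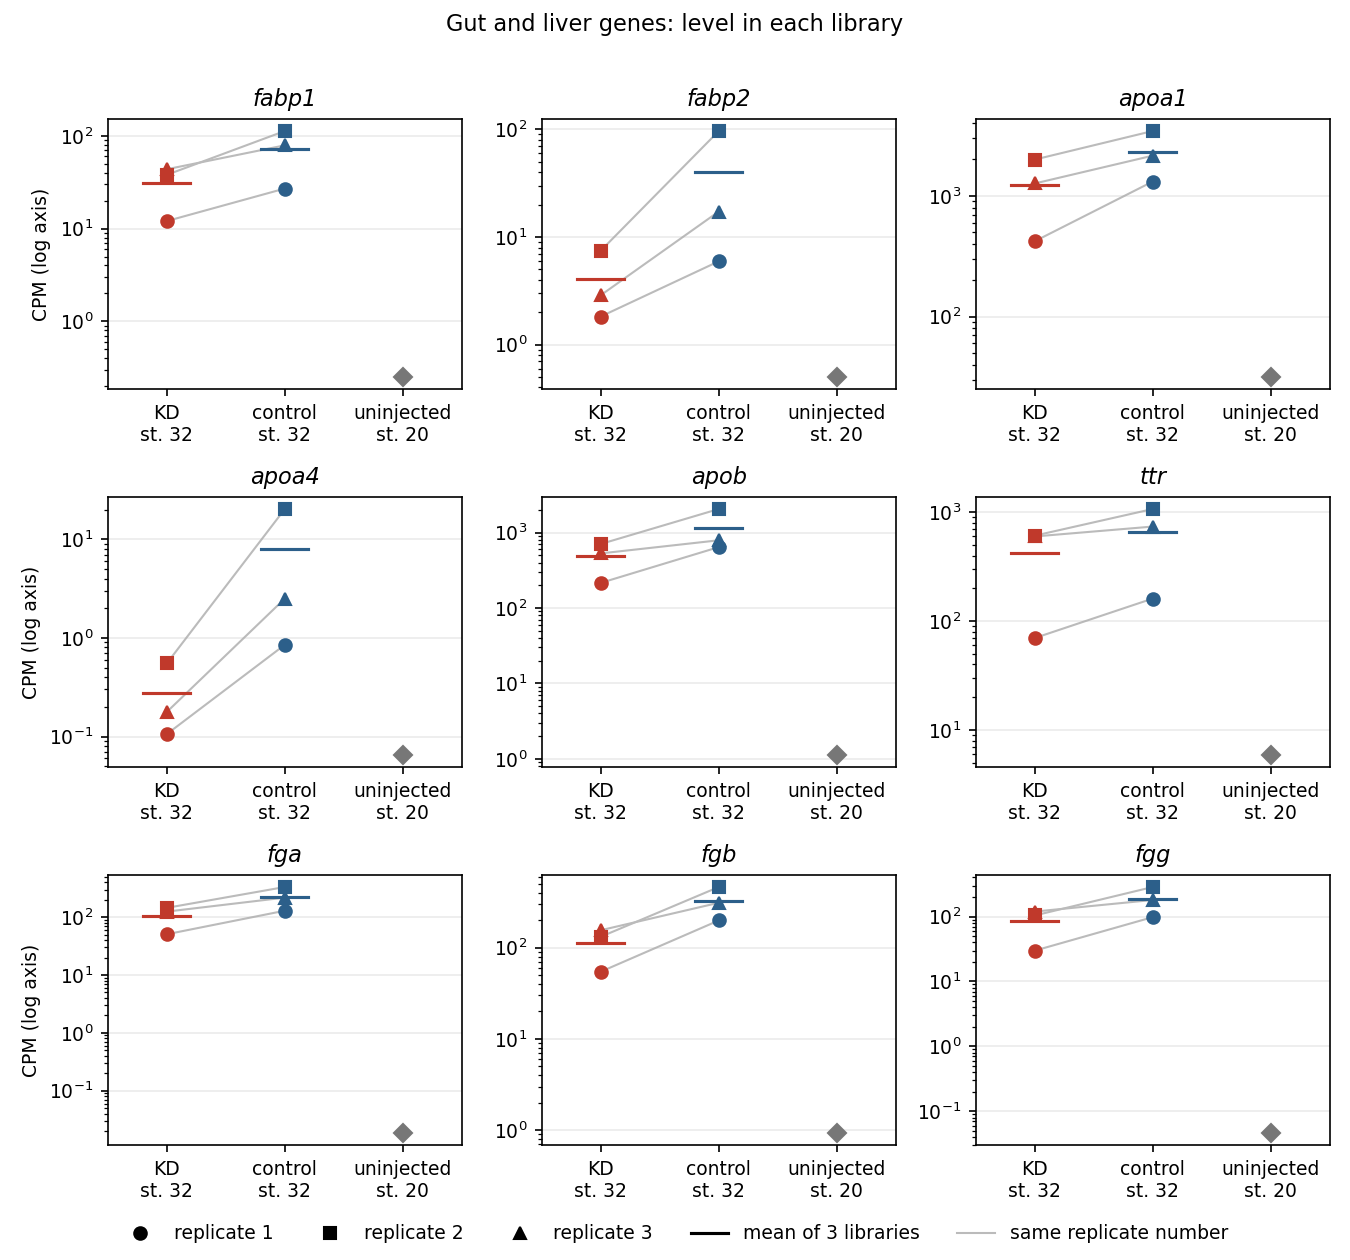
Level of the 9 members in each library, in CPM on a log axis, for KD and control embryos at stage 32 and uninjected embryos at stage 20. Marker shapes give the replicate number, grey lines join KD and control libraries of one number, and horizontal bars are means of 3 libraries. In each panel control replicate 2 is the highest point, KD replicate 1 the lowest of stage 32, and all grey lines run upward to the control.

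Fatty acid binding proteins shuttle long-chain fatty acids through the cytoplasm. *fabp1* (ENSXETG00000001938) encodes the liver type, which hepatocytes and enterocytes share. It was at 12.1, 38.0 and 43.7 CPM in KD replicates 1 to 3, against 27.0, 113 and 79.2 CPM in control replicates 1 to 3. The groups overlapped, because control replicate 1 lay below KD replicates 2 and 3. The fitted log2 fold change of *fabp1* was -1.21 (standard error 0.58), and -0.76 without control replicate 2.

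*fabp2* (ENSXETG00000004045) encodes the intestinal type, a classical enterocyte product. Its levels were 1.83, 7.48 and 2.88 CPM in KD replicates 1 to 3, against 5.96, 96.8 and 17.3 CPM in control replicates 1 to 3. KD replicate 2 lay above control replicate 1, so the groups overlapped, and 1 library set much of the difference. Control replicate 2, with 11055 reads, exceeded the other control libraries by 8.33-fold (against their mean). The log2 fold change was -3.31 (standard error 1.01) with all libraries, and -1.53 without control replicate 2.

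Of the apolipoproteins, *apoa1* (ENSXETG00000003763) encodes the main protein of high-density lipoprotein. It was at 421, 1995 and 1265 CPM in KD replicates 1 to 3, against 1313, 3439 and 2150 CPM in control replicates 1 to 3. KD replicate 2 stood above control replicate 1, so the groups overlapped. The log2 fold change of *apoa1* was -0.89 (standard error 0.55). It was -0.50 without control replicate 2, -0.48 without KD replicate 1 and -1.45 without KD replicate 2.

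*apob* (ENSXETG00000026768, listed as *APOB*) encodes the large scaffold of chylomicrons and of very low-density lipoprotein. It was at 215, 705 and 528 CPM in KD replicates 1 to 3, against 641, 2050 and 789 CPM in control replicates 1 to 3. KD replicate 2 again lay between control replicates 1 and 3. The log2 fold change of *apob* was -1.25 (standard error 0.54), and -0.57 without control replicate 2.

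*apoa4* (ENSXETG00000003764) encodes an apolipoprotein that in mammals is made largely by the intestine and carried on chylomicrons. It was the member with the fewest reads, with 11, 45 and 20 reads in KD replicates 1 to 3 and 96, 2320 and 194 reads in control replicates 1 to 3. No KD library reached the lowest control, at 0.106, 0.552 and 0.177 CPM in KD replicates 1 to 3 and 0.852, 20.3 and 2.51 CPM in control replicates 1 to 3. Its log2 fold change was -4.91 (standard error 1.31). Without control replicate 2 it was -2.64.

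*ttr* (ENSXETG00000004725) encodes transthyretin, which carries thyroid hormone in plasma and pairs with the retinol carrier RBP4. It had the smallest difference of the set. Levels were 69.9, 608 and 598 CPM in KD replicates 1 to 3, against 161, 1069 and 738 CPM in control replicates 1 to 3. Replicate 1 was the low library of both groups for *ttr*. KD replicates 2 and 3 stood far above control replicate 1, and the log2 fold change was -0.60 with a standard error of 0.83. Without control replicate 2 it was -0.08, and without KD replicate 1 it was -0.10. Leaving out control replicate 1 gave -1.07, KD replicate 2 gave -0.97 and KD replicate 3 gave -0.95.

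The 3 fibrinogen chains are secreted by hepatocytes as one disulfide-linked protein and are cleaved by thrombin to form the fibrin clot. *fga* (ENSXETG00000026093), the alpha chain, was at 50.6, 144 and 125 CPM in KD replicates 1 to 3, against 129, 331 and 217 CPM in control replicates 1 to 3. *fgb* (ENSXETG00000022431), the beta chain, was at 54.5, 132 and 155 CPM in KD replicates 1 to 3, against 199, 463 and 311 CPM in control replicates 1 to 3. *fgg* (ENSXETG00000022415), the gamma chain, was at 29.8, 104 and 119 CPM in KD replicates 1 to 3, against 98.02, 285 and 180 CPM in control replicates 1 to 3. The groups did not overlap for *fgb* and overlapped for *fga* and *fgg*, where KD replicate 2, and for *fgg* also KD replicate 3, exceeded control replicate 1. The log2 fold changes were -1.07 (standard error 0.44) for *fga*, -1.49 (0.42) for *fgb* and -1.14 (0.53) for *fgg*. Without control replicate 2 that of *fga* was -0.70 and that of *fgg* -0.72, and without KD replicate 1 that of *fgg* was -0.73.

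The groups were thus apart for 2 of 9 members, *apoa4* and *fgb*, while 15.6% of all genes had all KD libraries below all control libraries. With the fit across all genes, 3 of 9 members (*apoa4*, *fabp2* and *fgb*) were lower at an FDR below 10%, beside the 6.98% of all genes given above. When the replicate number entered the fit as a block, so that each KD library was set against the control library of its number, all 9 were lower, beside 19.0% of all genes lower and 19.2% higher. Since the set was picked with this contrast known, neither count is read further. The count of 3 depended on single libraries. It was 0 without KD replicate 1, 2 or 3 or control replicate 3, and 1 without control replicate 2. Over all genes the lower calls fell as well, from 1182 to 624, 663 and 774 without KD replicate 1, 2 or 3. They were 435 without control replicate 3 and 1043 without control replicate 2. At an unadjusted p below 0.05 the fits with 0 members called had from 2 to 6 members lower (edgeR). In them 3305 to 3726 of 16808 to 16883 genes had such a p, in either direction. With all libraries DESeq2 called 5 members lower, beside 1740 of 16944 genes. These counts are not read further either.

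**Figure D2:**
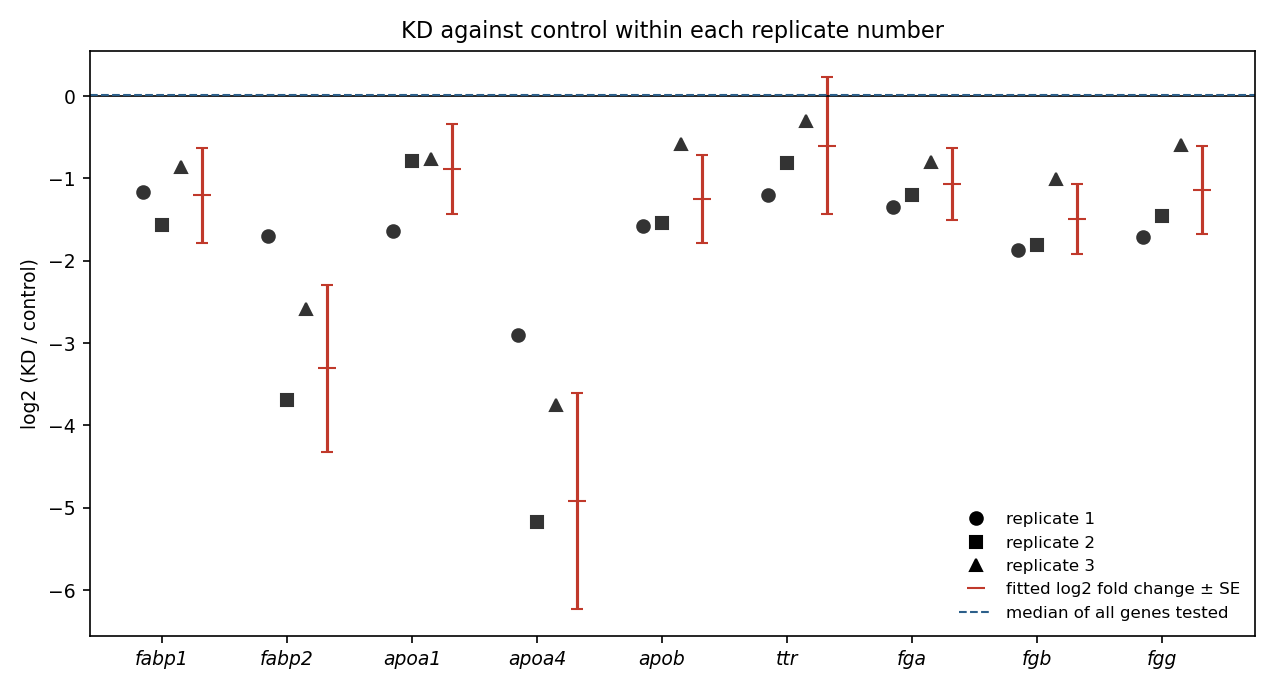
Log2 ratio of KD to control CPM within each replicate number (black markers) for the 9 members, with the fitted log2 fold change and its standard error in red and the median of all genes tested as a dashed line. All ratios lie below 0, from -0.30 for *ttr* in replicate 3 to -5.18 for *apoa4* in replicate 2.

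The members also differed within replicate numbers. In pair 1 the control level was 2.24 to 8.06 times the KD level over the 9 members (median 3.12). In pair 2 it was 1.72 to 36.8 times (median 2.91), and in pair 3 it was 1.23 to 14.1 times (median 1.75). Pair 3 was the closest for most members. Its difference was smaller than that of pair 2 in all 9 members and smaller than that of pair 1 in 7, the exceptions being *fabp2* and *apoa4*. For all genes tested the median log2 ratio was 0.01, -0.02 and -0.01 in pairs 1, 2 and 3. The standard errors of the members' log2 fold changes were 0.12 to 0.34 with the block and 0.42 to 1.31 without it.

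Replicate 2 was read apart. In control embryos it was the highest library for 9 of 9 members and stood at 1.81 to 12.1 times the mean of replicates 1 and 3. In KD embryos it was the highest for 6 of 9, at 1.25 to 3.90 times. *fabp1*, *fgb* and *fgg* were highest in KD replicate 3. The share of all genes that were highest in replicate 2 was not computed, so these counts are not read further. At least a 2-fold excess was seen for 6 of 9 members in control embryos, beside 8.03% of all genes, and for 3 of 9 (*fabp2*, *apoa1* and *apoa4*) in KD embryos, beside 6.27%. Both held for *fabp2* and *apoa4*, beside 3.14% of all genes. *apoa1* missed the mark narrowly, at 2.37-fold in KD and 1.99-fold in control embryos. With library size as the only scaling 4 members passed in both groups.

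Replicates 1 and 3 differed as well. Replicate 3 exceeded replicate 1 by 1.58-fold to 8.56-fold in KD embryos and by 1.23-fold to 4.58-fold in control embryos, with *ttr* at the top of both ranges. Control replicate 2, the highest library for every member, exceeded KD replicate 1, the lowest, by 6.55-fold for *fga*, 53.0-fold for *fabp2* and 192-fold for *apoa4*. Epidermal markers ran against the members in replicate 2. The summed level of 17 epidermal markers in replicates 1, 2 and 3 was 29240, 16840 and 24870 CPM in KD and 30090, 16410 and 25110 CPM in control embryos. That of 14 blood markers was 2496, 4715 and 3724 CPM in KD and 2910, 4001 and 3719 CPM in control embryos. At stage 20 the sums were 40240 CPM for the epidermal markers, 719 CPM for the blood markers and 40.4 CPM for the 9 members. For these sums replicate 1 was nearest to stage 20 and replicate 2 farthest in both groups. The muscle and neural sums did not keep this order. What sets replicate 2 apart was not tested.

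**Figure D3:**
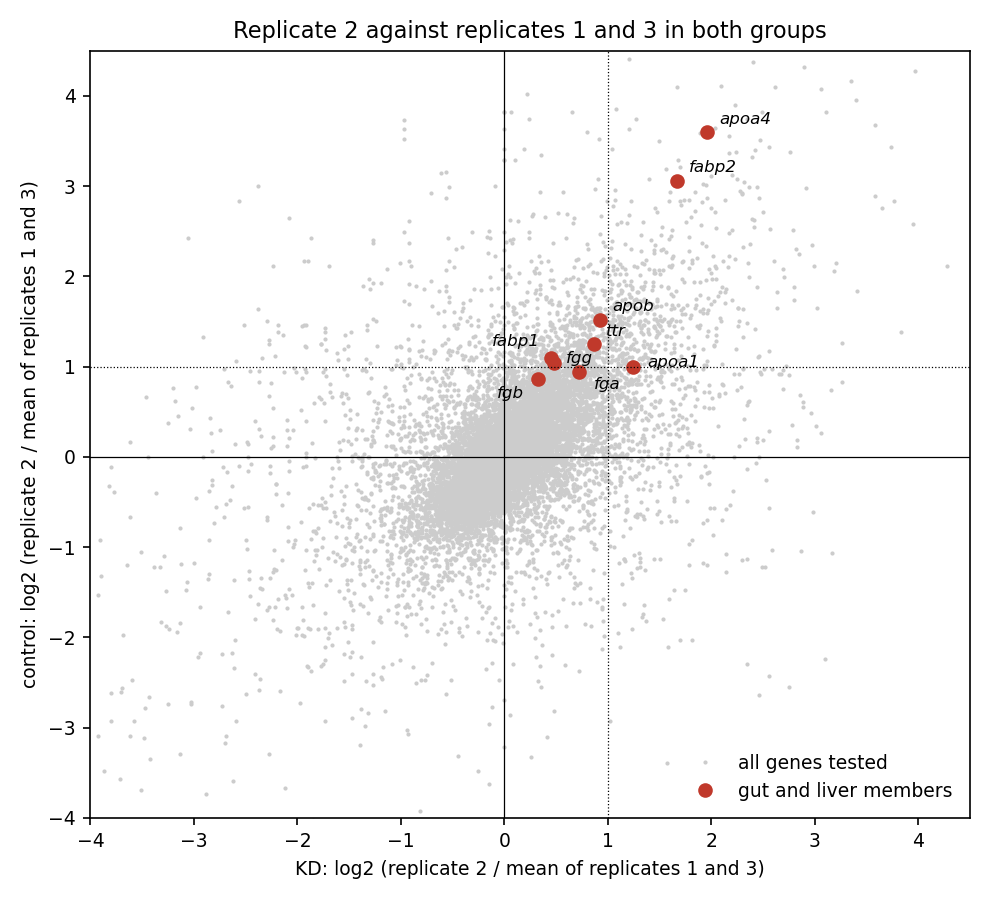
Log2 ratio of replicate 2 to the mean of replicates 1 and 3 in KD embryos (x axis) and control embryos (y axis), for all genes tested in grey (28 of them outside the drawn range) and the 9 members in red. Dotted lines mark a 2-fold excess. The 9 members lie up and to the right of the origin, with *fabp2* and *apoa4* farthest out.

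Ratios of reads within one library do not depend on how libraries are scaled. For every 100 reads of *fabp1* there were 15.2, 19.7 and 6.599 reads of *fabp2* in KD replicates 1 to 3, against 22.02, 85.7 and 21.8 in control replicates 1 to 3. For every 1000 reads of *apoa1* there were 0.251, 0.277 and 0.140 reads of *apoa4* in KD replicates 1 to 3, against 0.649, 5.91 and 1.17 in control replicates 1 to 3. Both ratios were lower in every KD library than in any control library. They are built on *fabp2* and *apoa4*, the members with the largest fitted falls, and no share over other gene pairs was computed. In mammals *fabp2* and *apoa4* are the more intestinal gene of each pair, but a part of gut cells in these ratios was not tested. Of the 25 intestinal genes read below, 2 fell and 3 rose at an FDR below 10% (edgeR), beside 6.98% and 7.44% of all genes. With the replicate block 10 fell and 5 rose, beside 19.0% and 19.2%, and the median log2 fold change of that list was -0.39. The ratios of *apob* and of *fga* to *apoa1* overlapped between the groups. The ratio of *ttr* to *apoa1* overlapped between the groups and was lowest in replicate 1 of both, at 16.6, 30.5 and 47.3 reads per 100 reads in KD replicates 1 to 3 and 12.3, 31.1 and 34.3 in control replicates 1 to 3.

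The fibrinogen chains kept close to one another. Of all fibrinogen reads, *fgb* made up 40.4%, 34.6% and 38.9% in KD replicates 1 to 3, against 46.7%, 42.9% and 43.9% in control replicates 1 to 3. *fga* made up 37.5%, 38.0% and 31.2% in KD replicates 1 to 3, against 30.3%, 30.7% and 30.7% in control replicates 1 to 3. The share of *fgb* was lower and that of *fga* higher in all KD libraries. For *fga* the nearest values were 31.2% in KD replicate 3 and 30.7% in control replicate 2. Shares of one library add up to the whole, so the shifts of *fgb* and *fga* are not separate. How often other sets of genes show such shifts was not computed. The share of *fgg* overlapped, at 22.1% to 29.9% in KD and 23.0% to 26.4% in control libraries. In the stage 20 library, with only 107 fibrinogen reads, *fgb* made up 93.5%, *fga* 1.87% and *fgg* 4.67%. These shares were not divided by transcript length. In the RefSeq annotation of a later assembly (UCB_Xtro_10.0) *fgg* and *fga* are direct neighbours among coding genes, and 1 coding gene lies between *fga* and *fgb*. *apoa1* and *apoa4* are likewise parted by 1 coding gene. The other members lie apart from one another.

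Across the 6 stage 32 libraries the members varied together. The Pearson correlation of log2 CPM between any pair of members ran from 0.66 (*apoa4* and *ttr*) to 0.99 (*fabp2* and *apoa4*), with a median of 0.92 over 36 pairs. These points share libraries, and the group difference is part of them, so the values are a description. Averaged over the members, the log2 level stood at -1.99, -0.03 and -0.44 in KD replicates 1 to 3 and at -0.31, 1.97 and 0.81 in control replicates 1 to 3, relative to the mean of the 6 libraries. Control replicate 1 thus lay below KD replicate 2 on this average.

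Of 11939 other named genes with at least 100 reads on average, those with the pattern most like this average over the 6 libraries were *rbp2* (r = 0.9995), *ctse*, *pecam1*, *fkbp1b*, *snx2*, *serpina1*, *pdgfc*, *sult1a1*, *adamts7* and *cyp4b1*, the last with r = 0.9935. In all, 227 of these genes had r of at least 0.95. Of the genes named here, only *rbp2* and *serpina1* are in the gut and liver lists below. The correlation reads the shape over the libraries and not its size. *snx2* (r = 0.9966) ran only from 50.2 CPM in KD replicate 1 to 75.9 CPM in control replicate 2. *rbp2* encodes a retinol binding protein of the intestine and *serpina1* the plasma inhibitor alpha-1-antitrypsin. *rbp2* was at 4.08, 16.7 and 12.7 CPM in KD replicates 1 to 3, against 13.1, 76.4 and 32.7 CPM in control replicates 1 to 3. *serpina1* was at 65.8, 234 and 147 CPM in KD replicates 1 to 3, against 182, 893 and 352 CPM in control replicates 1 to 3. For *serpina1* and *rbp2*, as for most members, control replicate 1 fell within the KD range and the FDR was 0.147 and 0.138 (edgeR), and 0.000206 and 0.000286 with the replicate block. Both genes were picked for their likeness to the members over these same libraries, so these values are a description and support nothing.

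At stage 20, before the liver bud differentiates, the members were low, with *apoa1* the highest. The stage 20 library had 3414 reads of *apoa1* (31.6 CPM), 636 of *ttr* (5.89 CPM), 121 of *apob* (1.12 CPM), 100 of *fgb* (0.926 CPM), 54 of *fabp2* (0.5001 CPM) and 27 of *fabp1* (0.250 CPM). It had 7 reads of *apoa4*, 5 of *fgg* and 2 of *fga*. The mean of the stage 32 controls was at least 4-fold above this library for 9 of 9 members, beside 10.1% of all genes, and so was the mean of the KD embryos, beside 10.3%. There is no replicate at stage 20, so these ratios carry no test.

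The ratio of stage 32 to stage 20 differed widely between members. The control mean was 72.8 times the stage 20 level for *apoa1*, 111 times for *ttr*, 292 times for *fabp1*, 350 times for *fgb* and 1035 times for *apob*. For *fga* it was 12190 times (95% interval 3376 to 100700, exact Poisson on the 2 stage 20 reads, counting error only) and for *fgg* 4055 times (1738 to 12490). Both group means are divided by the same stage 20 library. The KD mean was thus above stage 20 by less, which only restates the difference between the groups. The KD mean was 8.12 times the stage 20 level for *fabp2*, against 80.0 times in the controls. For *apoa4* it was 4.29 times (95% interval 2.08 to 10.7), against 122 times in the controls (59.1 to 303). Both intervals of *apoa4* rest on the same 7 stage 20 reads and leave out the spread between stage 32 libraries. They therefore do not compare KD with control embryos. In KD replicate 1 *apoa4* was 1.63 times and *fabp2* 3.65 times the stage 20 library. In the other 7 members KD replicate 1 remained above stage 20 by at least 11.9-fold.

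Other genes, listed for liver, intestine, pancreas, endoderm or lipid handling, were then read from 6 lists, to see how they stood in KD against control embryos. Many list genes did not rise from stage 20 as the members did. Some were low at both stages. *alb*, which encodes albumin, was at 0.111 CPM at stage 20 and 0.0617 CPM in the control mean. The control mean was 4-fold or more above stage 20 for 16 of 42 plasma proteins, beside 10.1% of all genes. So it was for 10 of 29 lipid, 7 of 25 intestinal and 15 of 42 hepatocyte genes. It was so for 0 of 35 transcription factors and 5 of 22 pancreas genes. *c9* and *agr2* were higher at stage 20 (3338 and 763 CPM) than in the control mean (1636 and 169 CPM). Calls below thus need not come from liver or gut cells. Of 42 other plasma proteins of the liver, 7 fell and 4 rose at an FDR below 10% (edgeR), beside the 6.98% and 7.44% of all genes. With the replicate block 21 fell and 7 rose, beside 19.0% and 19.2% of all genes. The median log2 fold change of the list was -0.37, beside 0.01 for all genes. *serpinc1*, which encodes antithrombin, was at 56.1, 63.7 and 75.5 CPM in KD replicates 1 to 3, against 176, 158 and 146 CPM in control replicates 1 to 3 (log2 fold change -1.28, standard error 0.15, edgeR FDR 0.00458). Unlike the members, *serpinc1* was alike in the replicates of a group, so that a difference no larger than that of *fgb* had a smaller error.

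*serpind1*, which encodes heparin cofactor II, had a log2 fold change of -1.31 (standard error 0.22) and *proc*, protein C, one of -1.36 (0.32). *plg* (plasminogen) was at -1.26, *c8b* at -1.26, *cfh* at -1.21 and *tf* (transferrin) at -0.44. The rises were *c3* (0.54), the central complement component and, with *c9*, one of the 2 list genes with the most reads, and *c8a* (1.11), *f5* (0.74) and *masp1* (0.49). *c9* was at 2484 ± 766 CPM in KD and 1636 ± 225 CPM in control embryos (SD, n = 3 libraries) and did not pass (FDR 0.169, edgeR), though it did with the block (FDR 0.00826). *rbp4*, the plasma partner of transthyretin, was at 71.1, 499 and 283 CPM in KD replicates 1 to 3, against 258, 973 and 492 CPM in control replicates 1 to 3. Its groups overlapped as those of *ttr* did (edgeR FDR 0.411, and 0.00272 with the block), and the stage 20 library held 0.0741 CPM.

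Of 29 genes of lipoprotein and lipid handling, 5 fell and 2 rose, beside 6.98% and 7.44% of all genes. With the block 13 fell and 4 rose, beside 19.0% and 19.2%. The median log2 fold change of the list was -0.18. Among the falls were *fabp6*, the ileal bile acid binding protein (-2.18, standard error 0.69), *lipg* (-1.22), *soat2* (-1.05), which makes cholesterol esters for lipoprotein assembly, and *scarb1* (-0.75), the receptor for high-density lipoprotein. *abcg5*, a partner in a sterol exporter, rose (2.05) at a low level of 0.569 ± 0.315 CPM in KD and 0.141 ± 0.0343 CPM in control embryos (SD, n = 3 libraries), and *pltp* rose by 1.12 on the log2 scale. *fabp3* and *fabp7* had the most reads of the list. *fabp3* was at 122.9 ± 59.5 CPM in KD and 275 ± 124 CPM in control embryos (SD, n = 3 libraries; edgeR FDR 0.168, and 0.000403 with the block). The FDR of *fabp7* was 0.579, and 0.045 with the block (edgeR).

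Of 25 genes of the intestinal epithelium 2 fell and 3 rose, beside 6.98% and 7.44% of all genes. With the block 10 fell and 5 rose, beside 19.0% and 19.2%. The median was -0.39. *cdh17*, an intestinal cadherin, fell by 0.75 on the log2 scale and *cftr*, the chloride channel, by 1.69. Among the rises were *reg4* (2.48) and *mep1a* (0.99). *agr2* and *espn*, its genes with the most reads, did not pass (FDR 0.669 and 0.116, edgeR), and had an FDR of 0.0797 and 0.00977 with the block, both fitted higher in KD.

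Of 42 genes of hepatocyte metabolism 4 fell and 0 rose, beside 6.98% and 7.44% of all genes. With the block 13 fell and 8 rose, beside 19.0% and 19.2%. The median was -0.29. At an unadjusted p below 0.05 edgeR had 4 of the 42 genes higher. DESeq2 called 2 higher, beside 1649 of all 16944 genes. *cyp8b1*, an enzyme of bile acid synthesis, was at 3.41, 2.02 and 3.09 CPM in KD replicates 1 to 3, against 16.3, 13.6 and 12.8 CPM in control replicates 1 to 3 (log2 fold change -2.30, standard error 0.22, edgeR FDR 0.00287). The others were *mat1a*, which makes S-adenosylmethionine in liver (-2.29), *ass1* of the urea cycle (-1.19) and *gamt* of creatine synthesis (-1.16). *glul* and *fbp1*, the most abundant in reads, did not pass (FDR 0.295 and 0.584, edgeR). With the block *glul*, fitted higher in KD, had an FDR of 0.0566 and *fbp1* one of 0.117.

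Of 35 endoderm and liver transcription factors 3 fell and 3 rose, beside 6.98% and 7.44% of all genes. With the block 9 fell and 6 rose, beside 19.0% and 19.2%. The median was 0.05. *cebpa*, a factor of hepatocyte and fat cell differentiation, was at 27.5, 28.0 and 24.8 CPM in KD replicates 1 to 3, against 52.0, 59.4 and 48.1 CPM in control replicates 1 to 3 (log2 fold change -0.97, standard error 0.13, edgeR FDR 0.00651). *hnf4g* (-1.01) and *foxa4* (-1.19), which is also a gene of the notochord and floor plate, fell as well. *hnf4a*, a principal activator of apolipoprotein genes in mammals, was at 7.20, 5.66 and 4.95 CPM in KD replicates 1 to 3, against 17.4, 7.94 and 8.20 CPM in control replicates 1 to 3. All its KD libraries lay below all its control libraries, as for 15.6% of all genes. Its FDR was 0.136 without and 0.00813 with the block (edgeR). Unlike the members, *hnf4a* was highest in replicate 1 of each group, and its lowest control library was replicate 2. A part of *hnf4a* in the levels of the members was not tested. *mixer* (2.26), *onecut2* (0.87) and *gata5* (0.51) rose. *xbp1* and *nr2f2*, with the most reads, did not pass (FDR 0.354 and 0.204, edgeR), but did with the block (0.0497, fitted lower in KD, and 0.0508, fitted higher).

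Of 22 pancreas genes 2 fell and 2 rose, beside 6.98% and 7.44% of all genes. With the block 3 fell and 5 rose, beside 19.0% and 19.2%. The median was 0.11. *ins*, insulin, was at 5.94, 5.24 and 6.05 CPM in KD replicates 1 to 3, against 7.53, 9.69 and 13.1 CPM in control replicates 1 to 3 (log2 fold change -0.79, standard error 0.22, edgeR FDR 0.0725). *pdx1*, the pancreatic homeodomain factor, fell by 1.01 on the log2 scale. *pnliprp2*, the list's gene with the most reads, rose by 0.57 and *nkx6-1* by 1.07, and *nkx2-2* did not pass (FDR 0.309, and 0.0714 with the block, edgeR). *nkx6-1* and *nkx2-2* are also expressed in the ventral neural tube.

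**Figure D4:**
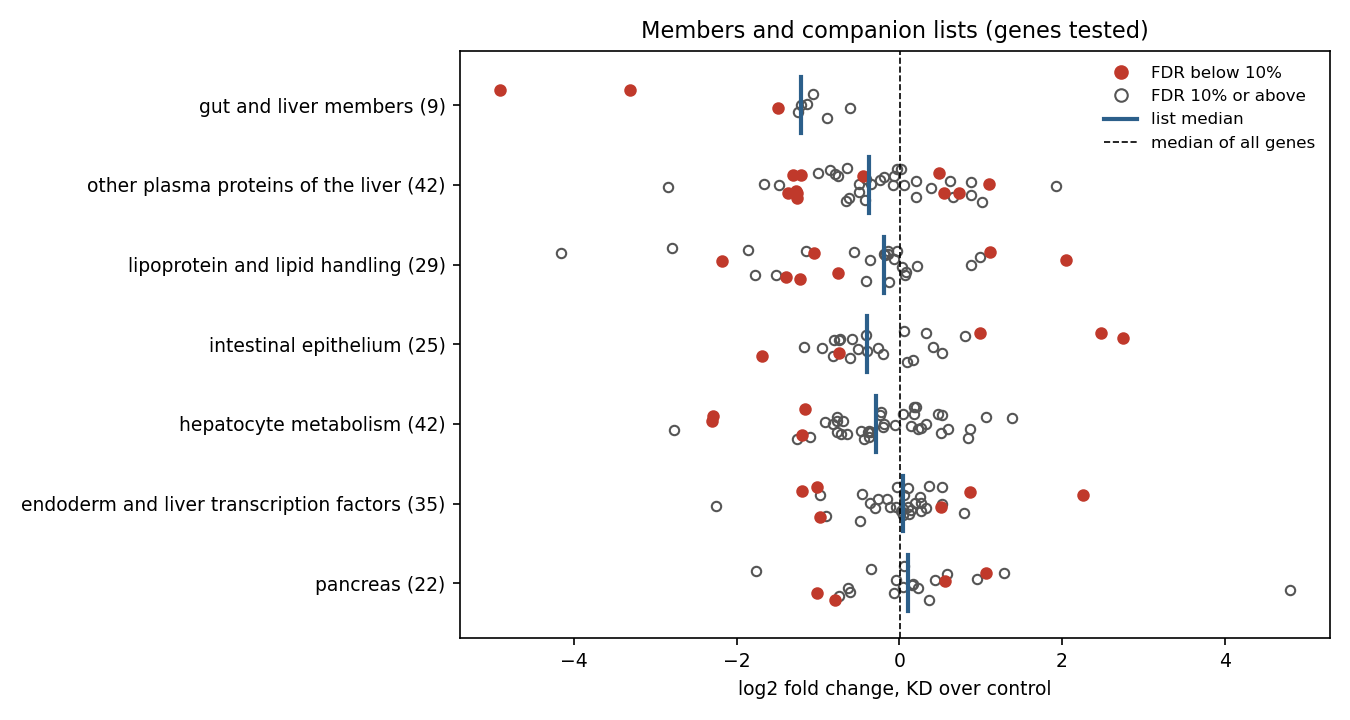
Fitted log2 fold changes of KD over control for the members and the 6 lists, 1 point per gene tested, filled red at an FDR below 10%. Blue bars are list medians and the dashed line is the median of all genes. All 9 members lie left of 0, and the median of the members is -1.21, against list medians between -0.39 and 0.11.

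The lists were also read for replicate 2. The median log2 ratio of replicate 2 to replicates 1 and 3 was 0.86 in KD and 1.09 in control embryos over the 9 members, 0.23 and 0.38 over the other plasma proteins, and 0.23 and 0.46 over lipid handling. It was 0.04 and 0.11 over hepatocyte metabolism, -0.05 and 0.10 over the intestinal genes, -0.18 and -0.18 over the pancreas genes, and -0.19 and -0.26 over the transcription factors, and -0.01 and -0.01 over all genes. A 2-fold excess of replicate 2 in both groups was found in 6 of 42 plasma proteins, 5 of 42 genes of hepatocyte metabolism and 2 of 29 of lipid handling, and in 0 of the 35 transcription factors, the 25 intestinal or the 22 pancreas genes, beside 3.14% of all genes. In KD embryos alone it was found in 9 of 42 plasma proteins, 8 of 42 genes of hepatocyte metabolism, 7 of 25 intestinal genes, 2 of 29 of lipid handling, 1 of 22 pancreas genes and 0 of 35 transcription factors, beside 6.27% of all genes. In control embryos alone the counts were 10, 6, 2, 6, 1 and 0, in the same order, beside 8.03% of all genes.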

How the data were processed

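Poly(A) RNA of 7 libraries was analysed (3 KD, 3 control, 1 at stage 20). Per the paper's methods and the submitters' processing notes, the authors called bases with CASAVA 1.8, aligned read pairs with Bowtie 0.12.7 to the Ensembl JGI4.1 transcriptome, dropped pairs shared by different genes, which lowers near-identical paralogs, and deposited raw read counts per transcript. The header's 7 names follow 6 empty fields and were given to the 7 columns in order. Transcripts were summed per gene; each member has 1. RefSeq gave symbols to 711 of 766 genes named by protein and new symbols to 542 of 1706 LOC genes.

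Testing used edgeR 4.0.16 on genes that reached 10 reads in total at stage 32 (R 4.3.3; TMM, quasi-likelihood without legacy dispersions), with no replicate term, Benjamini-Hochberg adjustment over all genes and an FDR of 10%. A standard error is the log2 fold change over the root of F. CPM were scaled over 7 libraries; 0.01 CPM was added before log ratios of single libraries. Libraries were paired by replicate number, though the labels do not say what the numbers share. Deviations of same-numbered libraries from their group means correlated across genes at r = 0.71, 0.72 and 0.36, against -0.64 to 0.07 otherwise. Deviations within a group cancel out, so high values for same numbers push the others down. The methods were tested on simulated data. This covered the main edgeR fit only, on counts drawn with no replicate effect. The replicate block and the other alternatives were not simulated. Alternatives included DESeq2 1.42.0.

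Members and lists were chosen with earlier results of these data known. The lists, of 28 to 52 symbols each, were written from general knowledge. Named are all members, per list the 2 genes with the most reads and the 2 largest changes below an FDR of 10%, and the 10 genes most like the members' average. The other genes named were chosen after their values were seen. P-values measure the spread between these libraries. Some list genes are counted but not reported by name here. No sequences are shown. Promoter motifs and proteins were not used here.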

Additional observations from a re-analysis of the deposited data

How the results depend on the processing

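All 9 members kept a negative log2 fold change under every alternative run, with medians from -0.72 (without control replicate 2) to -1.54 (without control replicate 1). That of *ttr* came close to 0, at -0.08 (standard error 0.86) without control replicate 2 and -0.10 (0.63) without KD replicate 1. The members were picked on this contrast and the fits share libraries, so the kept direction is a description. The share of all genes that kept one direction was not computed. The members' calls at an FDR below 10% did not hold in the same way. With 3 called in the main analysis, 9 passed with the replicate block, 5 with a term for replicate 2 against replicates 1 and 3, 5 with DESeq2, 1 with library size only (*apoa4*) and 0 at an FDR of 5% (5 at an unadjusted p below 0.05, edgeR). Leaving out libraries gave 0 to 3, and 2 (*apoa4* and *fabp2*) without replicate 2 of both groups, an alternative chosen after seeing the data. No member was called higher in any fit. Over all genes, 1182 lower and 1261 higher became 3213 and 3255 with the replicate block and 2194 and 2297 with the term for replicate 2. DESeq2 called 1740 and 1649, and an FDR of 5% left 616 and 653. At an unadjusted p below 0.05 the main edgeR fit had 4264 of 16944 genes, in either direction. Leaving out libraries gave 435 to 1043 lower and 433 to 918 higher, the fewest without control replicate 3. The count of members with a 2-fold excess of replicate 2 in both groups was 2, and 4 with library size only. The cause of these shifts was not tested. The size factors of DESeq2, the filters, the prior count, the transcript with the most reads and edgeR's legacy dispersions, the last chosen after seeing the data, left 3 members called. Library size alone moved the median of all genes to 0.08. Depth limits *apoa4* most, with 11 to 45 reads in KD libraries.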
